A study of Mus musculus with 4 samples.

Results

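The genes described here are 9 that encode proteins of the intestinal mucus and of the goblet cells that make it: Muc2, Fcgbp, Clca1, Zg16, Tff3, Agr2, Spink4, Retnlb and Muc13. They were taken by symbol from the 27998 genes counted in every library, and all 9 passed the filter on low counts in every cell class. The counts come from single cells of mouse small intestinal crypts, sorted at 8 weeks of age as live cells with EpCAM and without CD45 on their surface, by version 2 of the 3′ chemistry of 10x Genomics. There were 4 libraries, 2 labelled Slc7a5 fl/fl (the gene flanked by recombination sites, without Cre) and 2 labelled Slc7a5 IEC-KO (the same allele with Cre under the villin promoter, which is active in intestinal epithelial cells), and the comparison asks how loss of this amino acid transporter in the epithelium bears on the crypt's secretory cells. The protocol names 4 mice without saying how they were divided among libraries, so every p-value here measures the spread between these libraries only.

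Mucus is built in goblet cells and secreted over the epithelium as a gel. Its scaffold is the mucin MUC2, a very large glycoprotein that is folded and joined into dimers in the endoplasmic reticulum, glycosylated in the Golgi and packed into granules. FCGBP, CLCA1 and ZG16 are packed and released with it, TFF3 is a small repair peptide of the same granules, AGR2 is the protein disulfide isomerase that MUC2 needs in order to fold, and RETNLB is a secreted antibacterial protein. Paneth cells, at the crypt base, arise from the same secretory lineage and release alpha-defensins (the Defa genes) and lysozyme.

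Slc7a5 itself went against the labels. It had 140 and 128 unique molecular identifiers (UMIs, so that 1 count is 1 transcript caught) in the libraries labelled fl/fl and 350 and 615 in those labelled IEC-KO, a log2 difference of 1.11 ± 0.13 (SE; edgeR adjusted p = 1.05e-07) toward the knockout label. Counts from the 3′ end do not show whether the deleted part of the gene is present, so they check neither label, and groups are named below by their labels. The libraries labelled fl/fl held 3633 and 3217 cells with a median of 22242 and 32549 UMIs, and those labelled IEC-KO 10004 and 9644 cells with a median of 6700 and 9718. Xist had 8212 and 8830 UMIs in the libraries labelled fl/fl and 31938 and 50496 in those labelled IEC-KO, and Ddx3y, Eif2s3y, Kdm5d and Uty together 1533 and 1529 against 838 and 1154, so transcripts of both sexes were in every library and in unequal proportion. Libraries shared 14 to 132 barcodes.

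Promoter sequence was looked up for all 9 genes in RefSeq (GRCm38.p6) and matched for 4, Muc2, Fcgbp, Agr2 and Muc13. The bases before the annotated start of Muc2 and Fcgbp are printed because these genes, both on the plus strand of chromosome 7, differed in opposite directions in Paneth cells. Capitals mark matches on either strand to the letters ATATAA, an element like the TATA box, to CAGCTG (an E-box, of the kind bound by bHLH factors such as ATOH1) and CACCC (a core of Krüppel-like factor sites).
Muc2, chr7:141690090-141690339, plus strand: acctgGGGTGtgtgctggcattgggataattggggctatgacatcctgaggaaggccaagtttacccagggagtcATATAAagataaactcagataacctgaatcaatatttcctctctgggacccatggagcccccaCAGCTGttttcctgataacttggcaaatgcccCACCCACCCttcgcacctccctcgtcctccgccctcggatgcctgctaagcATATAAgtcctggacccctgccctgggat
Fcgbp, chr7:28070986-28071235, plus strand: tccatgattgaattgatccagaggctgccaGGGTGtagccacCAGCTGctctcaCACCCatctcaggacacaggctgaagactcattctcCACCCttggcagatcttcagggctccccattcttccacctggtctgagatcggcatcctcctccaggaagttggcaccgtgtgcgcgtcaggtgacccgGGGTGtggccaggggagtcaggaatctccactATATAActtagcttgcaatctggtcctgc
The Muc2 window held 2 matches to ATATAA, 1 to CAGCTG and 3 to CACCC, of which 2 overlap, and the Fcgbp window held 1, 1 and 4. Among all 32851 RefSeq promoter windows, 9.10% held ATATAA, 13.0% held CAGCTG and 52.0% held CACCC. The Agr2 window held CACCC 2 times and neither other motif, and the Muc13 window held none of the 3. No match to TGTTTAC (a FOXA core, in 3.17% of all windows) or TGATGNAA (an ATF4 core, in 3.45%) lay in any of the 4 windows. These matches describe letters only.

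Cells were divided by the share of their UMIs on Defa genes and by 3 of the mucus genes. Paneth cells were those with 30% or more of UMIs on symbols starting with Defa, goblet cells those with under 20% and at least 3 UMIs each of Zg16, Fcgbp and Clca1, and the remaining cells all others. The libraries labelled fl/fl held 2020 and 1950 Paneth cells (55.6% and 60.6% of cells), and those labelled IEC-KO 2019 and 2336 (20.2% and 24.2%). Goblet cells numbered 784 and 639 (21.6% and 19.9%) against 2482 and 2938 (24.8% and 30.5%). All 17 goblet markers outside the 9 genes were higher in goblet than in Paneth cells in every library, and all 7 Paneth markers outside the Defa genes were higher in Paneth cells. Cells between 20% and 30% Defa, just outside the Paneth rule, numbered 120 and 89 against 1305 and 1218 and are among the remaining cells.

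The rule for goblet cells counts UMIs, so their share can move with depth. As counted it was 20.7% ± 1.21 (SD, n = 2) in the libraries labelled fl/fl and 27.6% ± 4.00 in those labelled IEC-KO, a difference of 6.92 percentage points (two-sided exact permutation p = 0.333, the smallest that 2 against 2 can give). With each cell thinned to 3500 UMIs before the rule was applied it was 12.7% and 10.8% against 17.9% and 17.9%. With cells near simulated doublets left out the mean share was 21.1% against 26.7%, a difference of 5.51 points (exact permutation p = 0.333). With only cells of at least 10000 UMIs it was 16.7% and 18.6% against 10.9% and 17.9%, a difference of -3.32 points in the other direction (exact permutation p = 0.667). That limit did not fall on the classes alike: in IEC-KO replicate 1 it left 291 of 2482 goblet cells and 1548 of 2019 Paneth cells, and in fl/fl replicate 1 it left 511 of 784 and 1999 of 2020.

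Goblet cells spent a large part of their transcripts on these genes. The 9 took 17.6% and 16.6% of all goblet UMIs in the libraries labelled fl/fl and 18.0% and 16.3% in those labelled IEC-KO, so the groups overlapped. In Paneth cells they took 4.18% and 3.75% against 4.80% and 5.31%. Zg16, Fcgbp and Clca1 are among the 9 and chose the goblet cells. The rule thus helps to set the goblet share and its height over Paneth cells. Tff3 was the largest of the 9 in goblet cells (35.0% to 36.3% of their sum), followed by Spink4 (27.4% to 32.3%), which encodes a Kazal-type protease inhibitor of goblet granules. In Paneth cells the order was turned, with Spink4 at 52.4% to 59.4% of the sum and Tff3 at 20.1% to 24.1%. Retnlb was the smallest in goblet cells, at 0.0308% to 0.0759% of the sum. These are shares of UMIs from the 3′ end, which do not grow with transcript length.

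The step from goblet to Paneth cells differed between the genes. In counts per 1000000 UMIs outside the Defa genes, a scale that leaves out the product that fills Paneth cells, Agr2 in the libraries labelled fl/fl was 5.40 and 5.21 times as high in goblet as in Paneth cells, and Tff3 4.08 and 3.96 times. Zg16, Fcgbp and Clca1 were 3.04 to 4.37 times as high in the same libraries, which the rule for goblet cells itself helps to set. Muc2 was 2.80 and 2.69 times as high in the libraries labelled fl/fl and 2.36 and 1.93 times in those labelled IEC-KO. Spink4 stood nearly level, at 1.39 and 1.43 times and 1.15 and 1.13 times. Retnlb was higher in goblet cells under the fl/fl label (1.57 and 1.96 times) and lower under the IEC-KO label (0.58 and 0.73 times). Muc13, a membrane-bound mucin of the epithelial surface and not a granule protein, was 1.71 and 1.76 against 1.35 and 1.28 times as high.

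**Figure D1:**
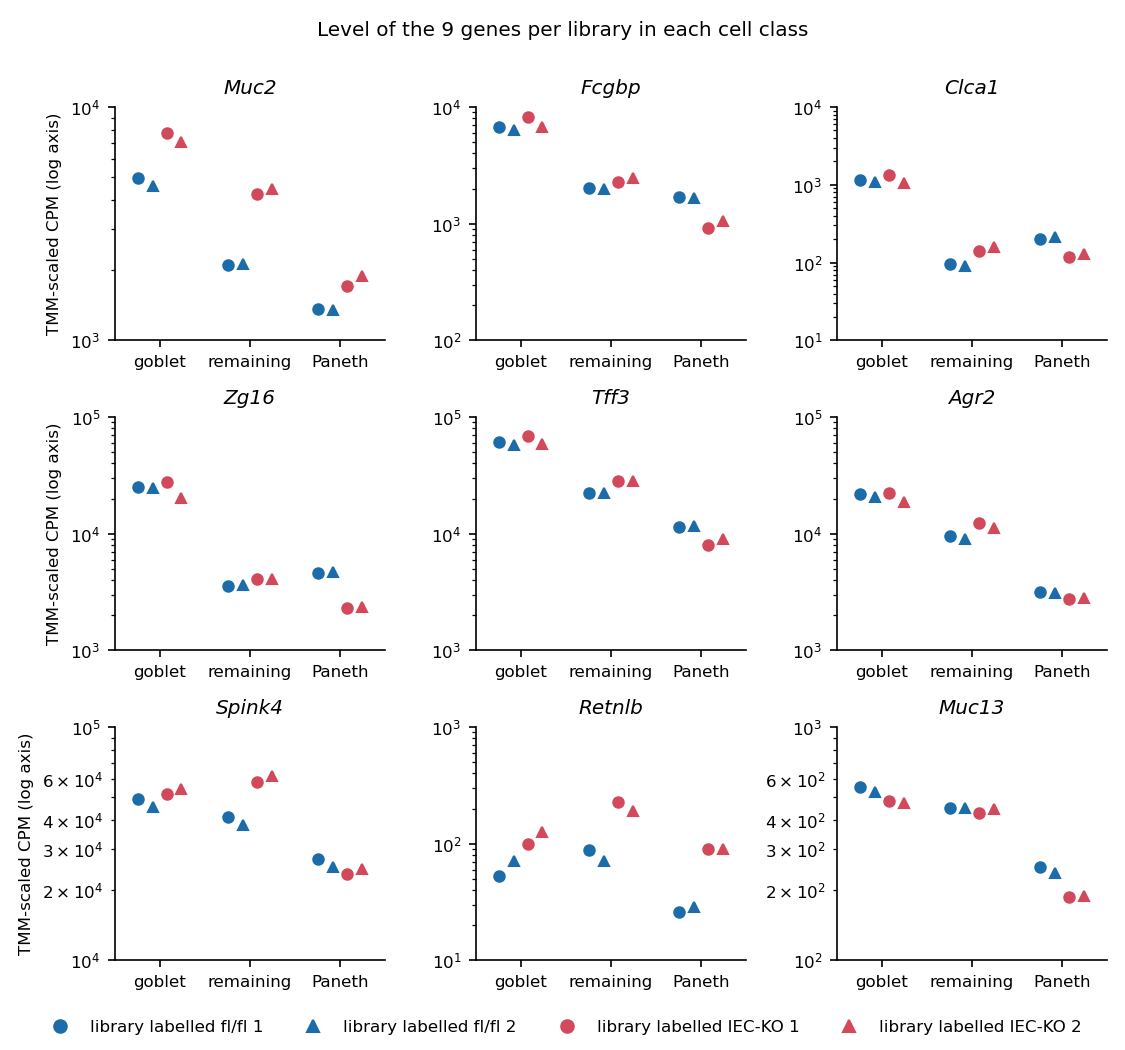
Level of each of the 9 genes in goblet, remaining and Paneth cells, as TMM-scaled counts per 1000000 on log axes, 1 point per library (blue, labelled fl/fl; red, labelled IEC-KO). TMM scaling was done within each class, so the points of 1 class can be compared with each other; for Muc2 and Retnlb both red points lie above both blue points in all 3 classes, and for Zg16, Fcgbp and Clca1 both lie below them in Paneth cells.

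Transcripts of all 9 genes were counted inside Paneth cells, and several stood no higher there than in tuft cells, which should not make mucus. Tuft cells, chemosensory cells with no mucus granules, served as the comparison (8 and 7 cells against 57 and 38, median 14038 and 13369 against 5069 and 8090 UMIs), beside Paneth cells with a median of 46965 and 52852 against 13782 and 20159. After thinning to 3500 UMIs per cell, Muc2 was seen in 97.0% and 97.1% of Paneth cells under the fl/fl label and 99.95% and 99.96% under the IEC-KO label. The same share in tuft cells was 87.5% and 85.7% against 96.5% and 100%. Zg16, Tff3 and Spink4 were seen in all thinned Paneth cells and in 98.2% to 100% of tuft cells. Clca1 was seen in 46.7% and 42.1% of Paneth cells against 37.7% and 42.6%, and in 25.0% and 71.4% of tuft cells against 26.3% and 28.9%. Muc13 was seen in 52.7% and 46.2% of Paneth cells against 55.6% and 55.7%, and in 25.0% and 71.4% of tuft cells against 68.4% and 71.1%. Thinned instead to 1500 UMIs outside Defa genes, Clca1 was seen in 33.9% and 34.5% of Paneth cells against 28.4% and 30.6%. In tuft cells it was 0% and 28.6% against 10.5% and 21.1%. Muc13 was then seen in 40.6% and 40.3% of Paneth cells against 41.7% and 43.2%. In tuft cells it was 37.5% and 42.9% against 38.6% and 31.6%. For both genes the order of Paneth and tuft cells depended in part on the thinning. Tuft cells held these transcripts too, and a UMI alone does not tell whether a Paneth cell makes the gene. The source of the UMIs was not tested in either cell type. Muc13 encodes a membrane-bound mucin and not a granule protein, so the lack of mucus granules in tuft cells does not bear on it.

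By level, Tff3 and Agr2 stood lower in Paneth than in tuft cells, and Muc13 stood near its tuft level. In counts per 1000000 UMIs outside Defa genes, Tff3 in Paneth cells was 0.70 to 0.85 times its tuft level over the 4 libraries, Agr2 0.59 to 0.77 times and Muc13 0.98 to 1.12 times. Against enterocytes (228 and 194 against 400 and 453 cells), Tff3 was 1.14 and 1.13 against 1.26 and 0.95 times as high. Agr2 was 0.83 and 0.98 against 1.10 and 0.87 times its enterocyte level, and Muc13 0.57 and 0.54 against 0.63 and 0.75 times. Muc2 was 1.31 and 1.33 against 1.52 and 1.09 times its enterocyte level, and Spink4 1.16 and 1.30 against 1.94 and 1.17 times. Fcgbp was 1.53 and 1.51 times its tuft level under the fl/fl label and 1.11 and 1.12 times under the IEC-KO label, and Muc2 1.22 and 1.89 against 1.16 and 1.12 times. These tuft levels are sums over few cells. The 9 genes made up a median of 7.77%, 2.69%, 2.26% and 4.17% of a thinned tuft cell's UMIs in the 4 libraries, and 9.16% to 13.8% at the 90th percentile. Among tuft cells 0%, 0%, 15.8% and 13.2% were near simulated doublets, and among enterocytes 3.95%, 3.09%, 16.5% and 23.4%. In counts per 1000000 outside Defa genes, the 17 goblet markers outside the 9 genes summed to 1969 and 1310 against 2041 and 2259 in tuft cells and to 1426 and 1334 against 2202 and 2297 in Paneth cells. Whether the transcripts in Paneth cells are free RNA was not tested. Clca1 stood at 2.30 and 2.15 times its tuft level under the fl/fl label and 2.07 and 2.15 under the IEC-KO label. Zg16 stood at 2.04 and 2.79 times under the fl/fl label and 1.53 and 1.28 under the IEC-KO label. Both belong to the goblet rule. Below its Defa limit it took cells with 3 or more UMIs of each of its genes out of the class holding the tuft cells. Still meeting that UMI minimum were 2 and 0 against 1 and 2 tuft cells. Spink4 ranged from 0.51 to 1.71 times over the 4 libraries, with the lowest value resting on 8 tuft cells.

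**Figure D2:**
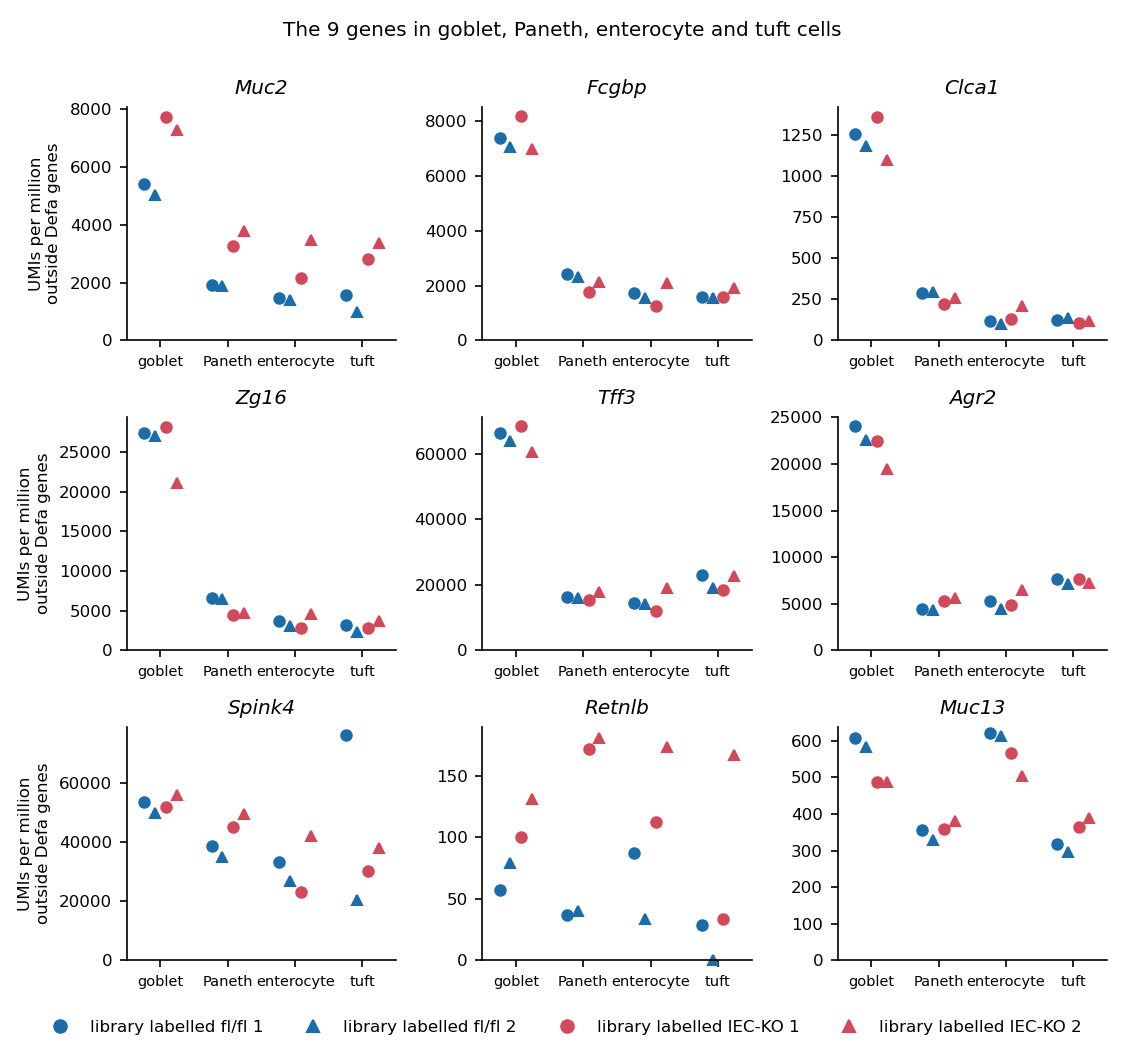
Level of each of the 9 genes per 1000000 UMIs outside Defa genes in goblet, Paneth, enterocyte and tuft cells, on linear axes from 0, 1 point per library. Tuft values under the fl/fl label rest on 8 and 7 cells; Tff3 and Agr2 in Paneth cells lie within or below the range of enterocyte and tuft cells, and Muc2 is higher under the IEC-KO label in all 4 cell types.

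In Paneth cells, Muc2 and Retnlb were higher and Zg16, Fcgbp, Clca1, Tff3 and Muc13 lower in the libraries labelled IEC-KO, after scaling for composition with TMM (trimmed mean of M values). That is 2 of 9 higher, where 20.1% of all 12492 genes tested were called higher, and 5 of 9 lower, where 19.8% were (edgeR quasi-likelihood test on UMIs summed per library, adjusted p below 0.05). Agr2 and Spink4 did not pass the test. Because so many genes were called, a call alone says little about any 1 of them.

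Muc2, the gel-forming mucin, stood at 1363 and 1344 TMM-scaled counts per 1000000 (CPM) in Paneth cells labelled fl/fl and at 1705 and 1879 in those labelled IEC-KO. The groups did not overlap, and the log2 difference was 0.40 ± 0.10 (SE; edgeR adjusted p = 0.00261). Without either of the libraries labelled fl/fl the call was lost, at log2 differences of 0.41 and 0.39. Muc2 moved the same way in enterocytes, where it stood at 1475 and 1413 against 2152 and 3465 per 1000000 UMIs outside Defa genes, and in tuft cells, at 1583 and 991 against 2814 and 3367. Whether free RNA carried the Paneth difference was not tested.

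Retnlb, the antibacterial resistin-like protein, had the largest difference of the 9. Its level in Paneth cells was 25.8 and 28.9 TMM-scaled CPM under the fl/fl label and 89.3 and 89.7 under the IEC-KO label, 3.27 times as high (log2 1.71 ± 0.07, edgeR adjusted p = 3.22e-14). These sums rest on 2032 and 2333 UMIs against 3339 and 6060. It was seen in 7.03% and 7.90% of thinned Paneth cells under the fl/fl label and in 23.8% and 25.5% under the IEC-KO label (two-sided exact permutation p = 0.333). In enterocytes the share was 5.26% and 7.73% against 15.8% and 21.6%. In tuft cells it was 12.5% and 0 of 7 cells, which allows a share of up to 42.9%, against 10.5% and 28.9%. In these thinned cells the Paneth share was below the tuft share in 1 library of each label (with 8 and 38 tuft cells). In the other library of each label it was above. Thinned instead to 1500 UMIs outside Defa genes, Retnlb was seen in 5% and 5.64% of Paneth cells against 17.6% and 20.7%. In tuft cells that share was 12.5% and 0% against 3.51% and 13.2%. Paneth cells were then above tuft cells in both libraries labelled IEC-KO and in fl/fl replicate 2, and below in fl/fl replicate 1. Under the IEC-KO label the Retnlb level in Paneth cells was 5.09 and 1.08 times its tuft level. Those tuft levels rest on 13 and 56 UMIs. Its Paneth level was 0.42 and 1.21 times its enterocyte level under the fl/fl label and 1.53 and 1.04 times under the IEC-KO label. The part of free RNA in the Paneth difference was not tested. Unthinned, the Paneth share was 53.0% and 56.1% against 60.5% and 75.7%.

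Transcripts of the 3 proteins packed with MUC2 were lower with TMM scaling, as were those of Tff3 and Muc13. Zg16, a lectin that binds bacterial peptidoglycan, went from 4628 and 4653 to 2295 and 2342 TMM-scaled CPM in Paneth cells (log2 -1.0 ± 0.11, edgeR adjusted p = 2.47e-07). Fcgbp, a large mucus protein with von Willebrand D domains, went from 1710 and 1668 to 920 and 1062 (log2 -0.77 ± 0.10, edgeR adjusted p = 2.50e-06). Clca1, a metalloprotease that cleaves MUC2, went from 203 and 211 to 117 and 128 (log2 -0.76 ± 0.07, edgeR adjusted p = 3.78e-08). In none of the 3 did the groups overlap. The same held in Paneth cells for Muc2, Retnlb, Tff3 and Muc13, and for Agr2 and Spink4, which did not pass the test. It therefore does not set the 3 apart. The share of all genes without overlap is not given here. All 3 stood above the pooled tuft level in every library, Fcgbp by the least. Against enterocytes, Zg16 was 1.78 and 2.07 times as high under the fl/fl label and 1.56 and 1.03 times under the IEC-KO label. Fcgbp was 1.40 and 1.49 against 1.42 and 1.01 times as high, and Clca1 2.48 and 2.88 against 1.72 and 1.21 times. In IEC-KO replicate 2, Zg16 and Fcgbp thus stood near their enterocyte level. Among the enterocytes of that library 23.4% were near simulated doublets, and the part of doublets in their level was not tested. The goblet rule helps to set both comparisons. Only below its limit on Defa share did it take cells with all 3 genes out of the class that holds the tuft cells and enterocytes. It took none out of the Paneth cells. Still meeting its UMI minimum were 19 and 12 against 25 and 107 enterocytes, or 8.33% and 6.19% against 6.25% and 23.6% of them.

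Tff3, the trefoil peptide, stood at 11495 and 11561 TMM-scaled CPM under the fl/fl label and 7939 and 8935 under the IEC-KO label (log2 -0.45 ± 0.13, edgeR adjusted p = 0.00994), and it lost the call without either library labelled fl/fl. Muc13 stood at 251 and 237 against 187 and 189 (log2 -0.37 ± 0.07, edgeR adjusted p = 0.000394). Agr2 was 3142 and 3108 against 2774 and 2804 (log2 -0.16 ± 0.11, edgeR adjusted p = 0.242). Spink4 was 27314 and 25108 against 23480 and 24579 (log2 -0.13 ± 0.15, edgeR adjusted p = 0.552). For both of these genes the groups did not overlap, and the difference was within what the model takes as spread. In Paneth cells Tff3 and Agr2 stood below their tuft level and Muc13 near it, as given above.

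Directions of 4 genes in Paneth cells depended on the scaling. By library size alone the median of all genes moved to 0.62 on the log2 scale, and 8795 genes were called higher and 454 lower, against 2515 and 2475 with TMM. On that scale Muc2 (1.02) and Retnlb (2.33) were still higher and Zg16 (-0.38) still lower, Fcgbp (-0.15) and Clca1 (-0.14) were no longer called, Agr2 (0.45), Spink4 (0.49) and Muc13 (0.24) were called higher, and Tff3 (0.17) changed sign without a call. Defa genes took a median of 41.1% and 43.9% of a Paneth cell's UMIs under the fl/fl label and 36.1% and 36.5% under the IEC-KO label.

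**Figure D3:**
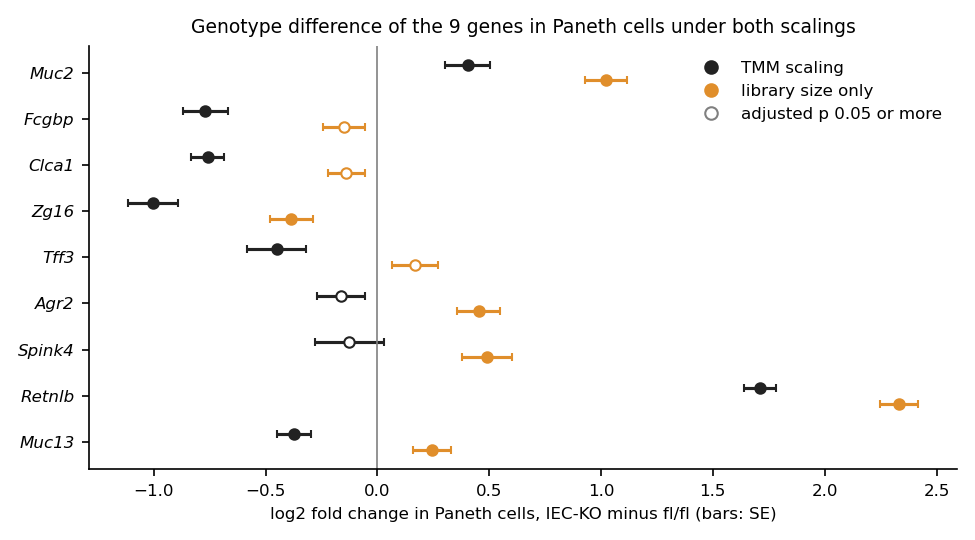
Log2 fold change of each of the 9 genes in Paneth cells, libraries labelled IEC-KO minus those labelled fl/fl, with standard errors from edgeR, under TMM scaling (black) and library size only (orange); open circles did not pass the test at an adjusted p of 0.05. Under library size only every gene lies further right, so Agr2, Spink4, Tff3 and Muc13 cross 0, while Muc2 and Retnlb stay right of 0 and Zg16 left of it.

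The genes also varied with how much Defa a cell held. In the libraries labelled fl/fl, Muc2 was 53.2 and 51.2 UMIs per 10000 outside Defa genes in cells at 10% to 20% Defa, 19.1 and 19.4 at 30% to 40%, and 19.5 and 18.6 at 40% or more. In those labelled IEC-KO it was 51.0 and 56.3, then 32.9 and 38.0, then 32.4 and 37.0. At 10% to 20% Defa the labels overlapped. At 20% to 30%, with 33.3 and 39.7 against 41.3 and 45.7, and in both higher ranges they did not. Retnlb was 0.37 and 0.33 per 10000 at 40% or more under the fl/fl label and 1.68 and 1.54 under the IEC-KO label. Zg16 did the reverse, at 66.6 and 65.2 against 46.6 and 51.9. The range from 40% up is not filled alike, since 0 cells labelled IEC-KO reached 50%, and its cells had a median of 49700 and 54629 UMIs against 17205 and 28490. The part of Defa share and depth in these differences was not tested. In Paneth cells of 40% Defa or more, a limit chosen after seeing the data, the log2 differences were 0.44 for Muc2, 1.78 for Retnlb and -0.84 for Zg16, each with an adjusted p below 0.05 in edgeR.

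**Figure D4:**
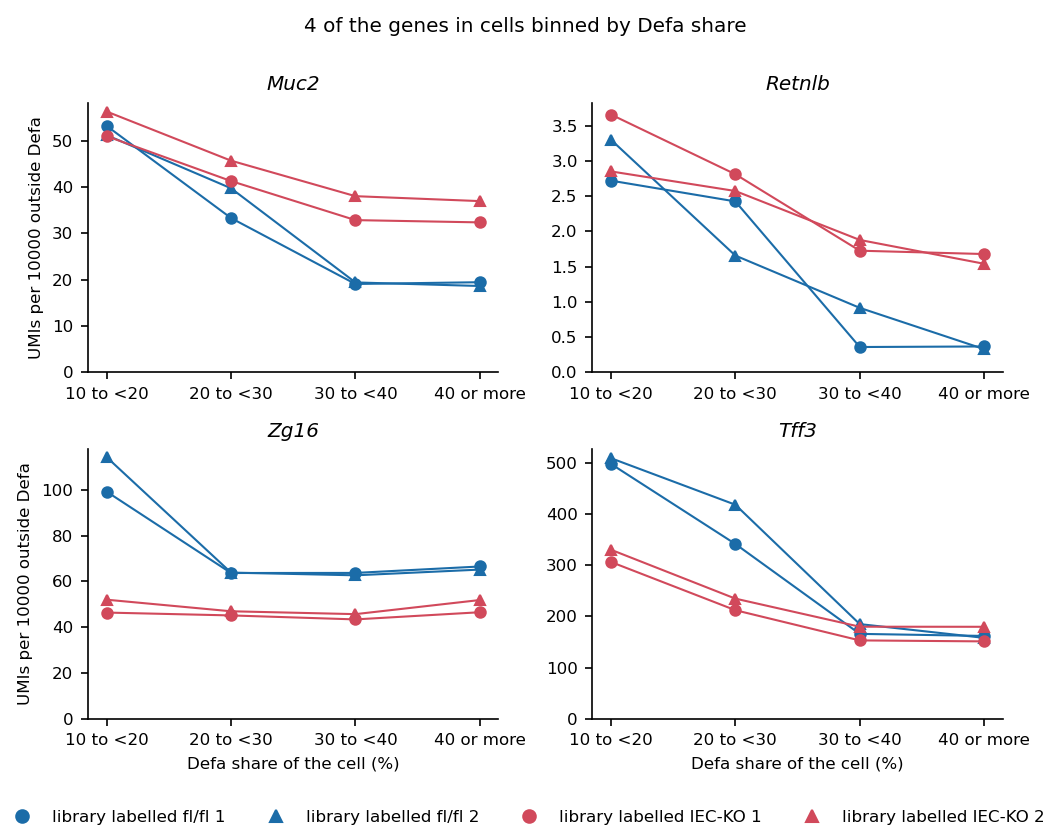
Muc2, Retnlb, Zg16 and Tff3 in cells binned by the share of UMIs on Defa genes (x axis, percent), as UMIs per 10000 outside Defa genes (y axis, linear from 0), 1 line per library. At 40% Defa or more, Muc2 and Retnlb are higher and Zg16 lower under the IEC-KO label, and the Tff3 lines of the 2 labels cross.

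Some Paneth cells met the UMI minimum of the goblet rule as well, 88.7% and 92.1% of them under the fl/fl label and 31.9% and 59.2% under the IEC-KO label. After thinning to 3500 UMIs it was 2.57% and 1.69% (52 and 33 cells) against 0.94% and 1.63% (19 and 38 cells). Of these thinned cells 13.5%, 6.06%, 47.4% and 15.8%, in the order of the libraries just given, were among the cells nearest to simulated doublets, where 3.54% to 4.58% of all Paneth cells were. Whether they are 2 cells in 1 droplet was not tested beyond this. The 9 genes made up a median of 3.89% and 3.46% of a thinned Paneth cell's UMIs under the fl/fl label and 4.34% and 4.86% under the IEC-KO label. In goblet cells, which 3 of these genes chose, the median was 18.0% and 17.1% against 18.6% and 16.9%. In enterocytes it was 1.91% and 1.83% against 1.99% and 2.94%.

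In the libraries labelled IEC-KO, 152 and 218 Paneth cells had 3 or more UMIs of Try5, a trypsinogen gene. In both libraries these cells had less of all 9 genes than those with none (1477 and 1500 cells). Agr2 was nearly level, at 50.5 and 56.2 UMIs per 10000 outside Defa genes against 53.6 and 56.3. Spink4 was 379 and 433 UMIs per 10000 outside Defa genes in the cells with Try5 and 464 and 520 in those without. Retnlb was 1.09 and 1.36 against 1.81 and 1.93, and Tff3 132 and 165 against 156 and 182. Zg16 was 40.2 and 45.5 against 44.5 and 46.5. Both sets of cells come from the same libraries, and no test was run on the split.

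In goblet cells, Muc2 and Retnlb were again higher under the IEC-KO label, and the other 4 genes that could be tested did not pass. That is 2 of 6, where 10.8% of 11133 genes tested were called higher, and 0 of 6 lower, where 10.9% were. DESeq2 also called 0 lower, and 1 of the 6 was lower at an unadjusted p below 0.05 in edgeR. Muc2 went from 4950 and 4569 to 7701 and 7055 TMM-scaled CPM (log2 0.63 ± 0.08, edgeR adjusted p = 4.15e-05), with no overlap between groups. Retnlb went from 52.5 and 71.7 to 99.5 and 127 (log2 0.88 ± 0.13, edgeR adjusted p = 0.00016). Retnlb in these goblet sums rests on 494 and 602 UMIs against 1564 and 3455. Near simulated doublets were 1.15% and 0.31% of goblet cells under the fl/fl label and 11.4% and 10.8% under the IEC-KO label. The share of cells marked this way was set by the number of cells in a library. Goblet cells had a median of 10579 and 11632 UMIs against 5682 and 8173. The UMI minimum of the rule thus asked for a larger share of a cell's UMIs under the IEC-KO label. Values of both genes in goblet cells chosen by other markers are given below.

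Spink4 in goblet cells was 49105 and 45267 TMM-scaled CPM under the fl/fl label and 51514 and 54084 under the IEC-KO label (log2 0.16 ± 0.08, edgeR adjusted p = 0.193). Tff3 was 60760 and 57806 against 68082 and 58547, Agr2 21986 and 20442 against 22341 and 18788, and in both the groups overlapped. Muc13 was 556 and 527 against 484 and 472 (log2 -0.18 ± 0.07, edgeR adjusted p = 0.0883), without overlap. Zg16, Fcgbp and Clca1 chose these cells and were not tested. Zg16 was 24985 and 24475 against 27976 and 20412, Fcgbp 6741 and 6407 against 8134 and 6769, and Clca1 1153 and 1072 against 1354 and 1066. In all 3 the libraries labelled IEC-KO differed more from each other than those labelled fl/fl did. Calls of the tested genes also turned on 1 library: without IEC-KO replicate 1, Agr2 (-0.17) and Muc13 (-0.20) were called lower and Spink4 (0.20) higher, and without IEC-KO replicate 2, Spink4 (0.14) and Tff3 (0.21) were called higher.

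In the remaining cells 5 of the 6 genes tested were higher under the IEC-KO label, where 18.5% of 12082 genes were called higher, and none was lower, where 18.5% were (edgeR; 0 of 6 in DESeq2 and 0 at an unadjusted p below 0.05). Muc2 went from 2109 and 2122 to 4219 and 4438 TMM-scaled CPM, 2.05 times as high (log2 1.03 ± 0.07, edgeR adjusted p = 1.39e-09). Retnlb went from 87.8 and 71.1 to 226 and 192 (log2 1.39 ± 0.09, edgeR adjusted p = 2.05e-09). Spink4 (log2 0.60 ± 0.07), Agr2 (0.35 ± 0.07) and Tff3 (0.35 ± 0.07) were called higher and Muc13 (-0.04 ± 0.06) was not. This class mixes cell types in unequal shares, with cells of 20% to 30% Defa making up 14.5% and 14.2% of it under the fl/fl label and 23.7% and 27.9% under the IEC-KO label. Enterocytes were 228 of 829 and 194 of 628 remaining cells under the fl/fl label and 400 of 5503 and 453 of 4370 under the IEC-KO label, and the 9 enterocyte markers summed to 5900 and 6398 against 2636 and 2354 CPM. The goblet minimum counts UMIs, so goblet-like cells that miss it through low depth can fall into this class. Its cells had a median of 10845 and 11555 UMIs against 6314 and 8838. The 17 goblet markers outside the 9 genes summed to 1979 and 1890 against 2670 and 2558 CPM in it. The part of these shares and of depth in the differences was not tested. Without fl/fl replicate 1, Agr2 (0.40) and Tff3 (0.34) lost the call, and without fl/fl replicate 2, Agr2 (0.31), Tff3 (0.35) and Spink4 (0.54) did. Zg16, Fcgbp and Clca1, which the rule used, stood at 3596 and 3635 against 4115 and 4127, at 2014 and 1985 against 2286 and 2454, and at 96.5 and 91.4 against 139 and 157.

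Over whole libraries, without any rule for cells, Muc2 (log2 0.57 ± 0.09), Retnlb (1.41 ± 0.06) and Agr2 (0.26 ± 0.10) were higher under the IEC-KO label and Zg16 (-0.39 ± 0.10), Muc13 (-0.35 ± 0.07), Clca1 (-0.27 ± 0.07) and Fcgbp (-0.22 ± 0.08) lower. That is 3 of 9 higher, where 21.0% of 13574 genes were called higher, and 4 of 9 lower, where 21.0% were. Tff3 (0.08 ± 0.11) and Spink4 (-0.01 ± 0.12) did not pass. Agr2, Fcgbp and Zg16 lost the call without either library labelled fl/fl, and Clca1 without fl/fl replicate 2 (log2 -0.27). The level over a library mixes the level per cell with the share of each cell class. By library size alone all 9 were called higher, where 11239 of all 13574 genes were.

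The differences in Paneth and in goblet cells were then compared directly, in 1 model over both classes with library as a block. Retnlb differed more in Paneth cells, by 0.81 ± 0.09 on the log2 scale (edgeR adjusted p = 3.18e-10). Tff3 (-0.56 ± 0.10, edgeR adjusted p = 1.67e-05), Spink4 (-0.31 ± 0.09, adjusted p = 0.0171), Muc2 (-0.25 ± 0.08, adjusted p = 0.0254) and Muc13 (-0.21 ± 0.07, adjusted p = 0.0301) had a lower difference in Paneth than in goblet cells with TMM scaling, and by library size alone all 4 turned to the other sign. This is 1 of 6 higher, where 6.62% of 12345 genes were called higher, and 4 of 6 lower, where 7.36% were. Agr2 did not pass (-0.13 ± 0.09, edgeR adjusted p = 0.338). By library size alone the median of all genes in this comparison was 0.72, above the values of Tff3, Spink4, Muc2 and Muc13 on that scale. Leaving out 1 library left between 0 genes (without fl/fl replicate 2) and 5 (without IEC-KO replicate 2, Agr2 included at -0.28) called lower in edgeR, and 2 without either of the others. With cells thinned to 3500 UMIs, Tff3 alone kept its call (-0.51), and the value for Retnlb was 0.05. In goblet cells chosen by markers outside the 9 genes, Retnlb was higher by 0.96 and Muc2 by 0.42, both called in edgeR. The Paneth differences of these genes were 1.71 and 0.40. The comparison of classes was not run on goblet cells chosen this way.

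Other genes of mucus making were counted in Paneth cells as lists chosen with earlier results of these data known. Of 23 glycosylation genes tested, 12 were higher and 2 lower under the IEC-KO label (median log2 0.22, against -0.00036 over all genes, of which 20.1% were called higher and 19.8% lower). Of 10 transcription factors of secretory cells, 8 were higher (median 0.52). Of 20 genes of folding and secretion, 6 were higher and 8 lower (median -0.07), and of 14 other mucins and mucus proteins 2 were higher and 8 lower (median -0.49). St3gal1, a sialyltransferase that caps O-linked glycans, went from 6.97 and 6.22 to 18.5 and 17.8 TMM-scaled CPM (log2 1.46 ± 0.08, edgeR adjusted p = 3.73e-12). Creb3l1, a membrane-bound factor of secretory cells, went from 14.7 and 14.9 to 25.8 and 29.2 (log2 0.90 ± 0.07, edgeR adjusted p = 2.26e-09). Muc1, a membrane mucin, was called higher at 0.09 and 0.09 against 0.37 and 0.22. Clca4b went from 5.21 and 4.93 to 1.87 and 1.75 (log2 -1.50 ± 0.12, edgeR adjusted p = 2.44e-09), and Clca4a (log2 -2.25) and Tff2, a trefoil peptide of the stomach and duodenum (log2 -2.18), were lower at 1.31 TMM-scaled CPM or less in every library.

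The genes whose level followed the sum of the 9 most closely over the 12 sums (4 libraries by 3 classes) were Bace2, Rep15, C1galt1c1, Kdelr3 and S100a13, with Pearson r of 0.998, 0.998, 0.997, 0.995 and 0.995. C1galt1c1 encodes the chaperone of the enzyme that extends O-linked glycans, and Kdelr3 a receptor that returns proteins to the endoplasmic reticulum. Of the 9 themselves, Tff3 (r = 0.993) and Agr2 (0.991) followed the sum most closely and Retnlb least (0.44). Each of the 9 is part of that sum, Tff3 a large part and Retnlb a very small one, which helps to set its r. Zg16, Fcgbp and Clca1 also chose the goblet class. The 12 sums share libraries and depth, and the differences between classes carry most of these values.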

How the data were processed

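Single cells of mouse intestinal crypts were counted in 4 libraries. The authors deposited raw UMI counts per gene and cell barcode, 1 matrix per library, made with Cell Ranger 2.1.1 on mm10 per the submitters' processing notes (the methods of the study name another version), without normalization or cell labels. Gene positions are from GENCODE on GRCm38. The gene set, the other lists and the tests were chosen with earlier results of these data known.

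Cells were divided by Defa share and UMIs as given in the report, after which counts were summed per library and class (113529509, 119339206, 87922473 and 127094508 UMIs in all). Sums were tested with edgeR 4.0.16 (filterByExpr, TMM, quasi-likelihood, Benjamini-Hochberg over all genes tested, 0.05) and shares with a two-sided exact permutation test. On simulated counts with 200 changed genes the step recovered 80.0% of 2-fold changes in Paneth sums, 68.0% in goblet sums and 43.0% in the comparison of classes, and 98.0% to 100% of 4-fold changes. The simulated spread between libraries was set larger than the common dispersion fitted to the data (0.00293 in Paneth and 0.00412 in goblet sums). Changes were put only into genes with higher mean counts. These shares therefore describe neither the spread of these data nor genes with few UMIs. A floor of a 0 count is 3 cells and covers counting error only. Doublets stayed in. For an alternative without them, cells were ranked by how many of their 30 neighbours (30 components) were simulated doublets, and the top share expected from the number of cells in a library was left out. Within the remaining cells, tuft cells had at least 2 UMIs of at least 4 tuft markers and enterocytes at least 3 UMIs of at least 4 enterocyte markers. All 4 libraries were summed without the study's filter on immune clusters. The immune markers outside Lyz2 had 0 to 92 UMIs in a library.

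Genes named outside the 9 are the 3 largest rises and 3 largest falls of the mucus lists in Paneth cells whose libraries do not overlap, the 5 closest to the sum of the 9 among genes with a mean of at least 10 CPM, Slc7a5, the sex genes and Try5. Alternatives were other scalings (library size, with and without Defa genes), DESeq2 1.42.0, other filters on low counts, a replicate block, each library left out, doublets left out, cells of at least 10000 UMIs, cells thinned to 3500 UMIs or to 1500 outside Defa genes, goblet cells by markers outside the 9 genes (at least 5), and Paneth limits of 20% and 40% Defa, chosen after seeing the data. Python 3.11.15 was used for the rest.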

Additional observations from a re-analysis of the deposited data

Results flagged for a closer look

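For 5 genes the difference between labels was not the same in Paneth as in goblet cells, by the test of that difference itself (edgeR, both classes in 1 model). For Retnlb the Paneth difference exceeded the goblet difference by 0.81 on the log2 scale. For Tff3 (-0.56), Spink4 (-0.31), Muc2 (-0.25) and Muc13 (-0.21) it was below the goblet difference with TMM scaling. The last 4 took the opposite sign when scaled by library size alone, where the median of all genes was 0.72, above each of the 4. After thinning to 3500 UMIs the test called only Tff3 among the 5, so Retnlb lost its call. With 1 library left out, the values ran from 0.66 to 0.99 for Retnlb and from -0.77 to -0.36 for Tff3. They ran from -0.32 to -0.30 for Spink4, -0.39 to -0.11 for Muc2 and -0.25 to -0.18 for Muc13. Zg16, Fcgbp and Clca1 chose the goblet cells of this test, which was not run on goblet cells chosen by other markers. The part of the Defa share, depth and free RNA in these differences was not tested.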

How the results depend on the processing

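By library size alone the number called higher became 5 in Paneth cells, 9 in all cells, 3 in remaining cells and 5 in the comparison of classes, and the number lower 1, 0, 1 and 0, with 1 lower in goblet cells. Over all genes, in the same order, 8795 of 12492, 11239 of 13574, 909 of 12082 and 8443 of 12345 were called higher. Called lower were 454, 216, 5220 and 50, with 1891 of 11133 in goblet cells. By library size without Defa genes the numbers higher were 4, 7, 3 and 5, and the numbers lower 3, 0, 1 and 0, with 1 in goblet cells. Over all genes they were 7712, 9388, 1111 and 7481 higher and 639, 590, 4376 and 69 lower, with 1904 lower in goblet cells. Under the first and second of these scalings the log2 differences that turned were, in Paneth cells, Tff3 (0.17 and 0.035), Agr2 (0.45 and 0.32), Spink4 (0.49 and 0.36) and Muc13 (0.24 and 0.11). In all cells they were Fcgbp (0.61 and 0.28), Clca1 (0.57 and 0.23), Zg16 (0.44 and 0.11), Spink4 (0.82 and 0.49) and Muc13 (0.48 and 0.15). In the comparison of classes they were Muc2 (0.49 and 0.36), Tff3 (0.17 and 0.048), Agr2 (0.60 and 0.48), Spink4 (0.43 and 0.30) and Muc13 (0.53 and 0.40). Library size alone moves the median of all genes to 0.62 in Paneth cells and to 0.72 in the comparison of classes.

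With cells thinned to 3500 UMIs the number lower was 2 in all cells and 1 in goblet cells, the number higher 3 in remaining cells, and in the comparison of classes 0 were higher and 1 lower. Over all genes, 1408 of 11732 were lower in all cells, 366 of 9096 lower in goblet cells and 1189 of 11237 higher in remaining cells. In the comparison of classes 200 of 10266 were higher and 186 lower. With cells of at least 10000 UMIs, 1 was lower in goblet and 3 higher in remaining cells, Agr2 in all cells turned to -0.043, and the difference in goblet share to -3.32 points. Over all genes at that limit, 800 of 10422 were lower in goblet and 2205 of 10854 higher in remaining cells. In goblet cells by other markers 1 was lower, where 1325 of 11853 genes were. Without the library block, 1 was lower in the comparison of classes, where 321 of 12345 genes were. Unthinned, the share of Paneth cells with Muc13 differed by -4.13 points, against 6.24 thinned. The cause of these was not tested.

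Over the 4 fits that leave out 1 library each, where a lone library was assumed to vary like the other group, 1 to 2 genes were higher in Paneth cells and 1 to 4 lower in all cells. Goblet cells gave 2 to 4 higher and 0 to 2 lower, remaining cells 2 to 5 higher, and the comparison of classes 0 to 5 lower. With the replicate number as a block, 1 of 6 (Muc13) was called lower in goblet cells, and over all genes 2568 were called higher and 2543 lower in Paneth cells and 1597 and 1655 in goblet cells, where the fit without it gave 1203 and 1211. Same-numbered libraries correlated at 0.02 (Paneth), 0.03 (all), 0.13 (goblet) and 0.06 (remaining) in their deviations, and nothing else pairs them. In Paneth cells DESeq2 called 1636 genes higher and 1487 lower, and thinned cells 962 and 927; in goblet cells they gave 655 and 554, and 470 and 366. A Paneth limit of 50% Defa was not run, as 0 cells labelled IEC-KO reach it. With 2 libraries per label and goblet cells at a median of 5682 to 11632 UMIs, depth limits the genes with few UMIs, such as Retnlb, with 494 in 1 goblet sum.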
